A study of Mus musculus with 12 samples.

Results

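The Tnfaip8 family, also called the TIPE family, is a group of small cytoplasmic proteins that hold phosphoinositides, the phosphorylated membrane lipids, in a hydrophobic cavity and can move them between membranes. Its 4 mouse paralogues, Tnfaip8, Tnfaip8l1, Tnfaip8l2 and Tnfaip8l3, were matched by gene symbol among 43432 genes of the count table, and all 4 were among the 17257 genes with enough reads to be tested. The family was selected on measured values: it was taken up because Tnfaip8l1 was higher in Mtmr2 KO than in WT control nerves in these libraries, and its paralogues came with it by sequence. The differences of Tnfaip8l1 are therefore given as a description with no test in any comparison, while those of the other 3 members keep their test.

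Sciatic nerves of mice at 1 month of age (P30) were profiled by RNA-seq of polyA-selected RNA, with 1 nerve per mouse, in 3 groups of 4 libraries, each from 3 males and 1 female. WT control mice were Mtmr2 wt/wt and untreated. Mtmr2 KO mice were Mtmr2 -/- and labelled as given no treatment, whereas the study's text calls this comparator vehicle treated, and are a model of the demyelinating neuropathy CMT4B1. Mtmr2 KO niacin mice were also Mtmr2 -/- and received niacin by intraperitoneal injection at 120 mg/kg from P10 to P21 and then the slow-release form Niacin-SR by gavage until P30, and no niacin-treated wild-type group was analysed here. All groups share the 129/SvPas strain background, and each library pools Schwann cells, axonal RNA, fibroblasts, macrophages, endothelium and fat.

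MTMR2 is a phosphatase that removes a phosphate from phosphoinositides, and its loss causes excessive, folded myelin. Of the family, TIPE3, the product of Tnfaip8l3, is known for offering PIP2 to phosphoinositide 3-kinase, TIPE2, the product of Tnfaip8l2, for restraining inflammation in macrophages and lymphocytes, TNFAIP8 for its induction by tumour necrosis factor and its anti-apoptotic effect, and TIPE1, the product of Tnfaip8l1, for promoting cell death and autophagy. How any of them acts in peripheral nerve is not part of these measurements.

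The paralogues were separate enough in sequence for their reads to be told apart. The following stretches of 60 coding bases from 3 members, read 5′ to 3′ from the GRCm38 genome, show how far they differ even in a conserved part of the gene, with capitals at the 37 positions that are identical in all 3.
Tnfaip8l1 (chr17:56171716-56171775, + strand): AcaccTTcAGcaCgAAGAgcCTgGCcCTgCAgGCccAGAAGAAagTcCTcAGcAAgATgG
Tnfaip8l2 (chr3:95140487-95140546, − strand): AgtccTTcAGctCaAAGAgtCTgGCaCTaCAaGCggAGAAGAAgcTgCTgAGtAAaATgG
Tnfaip8l3 (chr9:54027572-54027631, − strand): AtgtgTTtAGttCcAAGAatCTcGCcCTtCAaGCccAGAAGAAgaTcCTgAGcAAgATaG
Over the whole alignment, 245 of 552 coding positions (44.4%) were identical in these 3 members, and no stretch of 100 bases in any annotated transcript of one member occurred in a transcript of another. The longest stretch shared by any pair of the 4 members was 20 bases, and pairwise coding identity ran from 59.7% for Tnfaip8l2 and Tnfaip8l3 to 66.8% for Tnfaip8 and Tnfaip8l3.

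The bases before the start of each gene are shown because Tnfaip8l1 differed in its pattern across the libraries from Tnfaip8l2 and Tnfaip8l3, which varied together. Each run is the 250 bases upstream of the RefSeq start (GRCm38.p6), 5′ to 3′ in the direction of the gene, with capitals at matches to the motifs searched on both strands.
Tnfaip8l1 (chr17:56162241-56162490, + strand): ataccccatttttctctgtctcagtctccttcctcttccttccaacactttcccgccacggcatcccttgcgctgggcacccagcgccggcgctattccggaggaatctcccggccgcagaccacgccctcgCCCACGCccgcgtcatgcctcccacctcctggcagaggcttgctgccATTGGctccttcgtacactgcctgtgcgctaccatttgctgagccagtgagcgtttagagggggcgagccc
Tnfaip8l2 (chr3:95142355-95142604, − strand): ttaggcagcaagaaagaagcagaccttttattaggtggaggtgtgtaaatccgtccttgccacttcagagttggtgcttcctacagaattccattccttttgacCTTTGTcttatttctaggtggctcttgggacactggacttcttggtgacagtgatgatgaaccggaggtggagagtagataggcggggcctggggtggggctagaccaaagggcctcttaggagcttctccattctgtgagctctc
Tnfaip8l3 (chr9:54068412-54068661, − strand): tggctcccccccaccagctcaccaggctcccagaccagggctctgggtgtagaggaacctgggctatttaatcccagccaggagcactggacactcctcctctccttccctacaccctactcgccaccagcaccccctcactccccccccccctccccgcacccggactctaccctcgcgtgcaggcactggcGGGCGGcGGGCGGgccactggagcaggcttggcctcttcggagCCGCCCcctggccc
The motifs were the CCAAT box (CCAAT), the GC box (GGGCGG), the TATA box (TATAAA), the E-box (CACGTG), a core bound by SOX factors (ACAAAG) and a core bound by EGR factors (GCGTGGG). The Tnfaip8l1 window held 1 CCAAT box and 1 EGR core, which occur in 33.8% and 4.3% of the same windows of 32851 annotated starts. The Tnfaip8l2 window held 1 SOX core, found in 16.5% of windows, and the Tnfaip8l3 window held 3 GC boxes, a motif found in 32.7% of windows. The EGR and SOX cores were searched because EGR2 and SOX10 are the transcription factors that drive Schwann cell myelination. A match is a stretch of letters and no evidence of binding.

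Before the results, some libraries need to be named. Total counts per library ranged from 20763951 to 33191106. Mtmr2 itself lay between 128.0 and 161 CPM (read counts scaled to the size of the library, with TMM factors) in WT control and between 66.8 and 73.5 CPM in Mtmr2 KO niacin, but in Mtmr2 KO it measured 71.6, 84.7, 143 and 69.5 CPM, so the library labelled Mtmr2 KO replicate 4503 was within the WT control range. Counts were taken over the whole gene, so reads from any exons left in the null allele are included. The Mtmr2 KO library 4502 stood apart in composition: the median log2 level of 719 genes with short transcripts (under 1000 bases), relative to the WT control mean, exceeded that of 3165 genes with long transcripts (over 5000 bases) by 0.99, against −0.18 to 0.35 in the other Mtmr2 KO, −0.13 to 0.31 in WT control and 0.31 to 0.73 in Mtmr2 KO niacin libraries. This quantity is called the short-minus-long difference here. The 8 skeletal muscle markers, each detected in every library, summed to 13.8 to 55.1 CPM in WT control and 11.3 to 51.9 CPM in Mtmr2 KO, and to 60.1, 3001, 2972 and 95.3 CPM in the Mtmr2 KO niacin libraries, in the order 4505 to 4508. Markers of the labelled tissue were high throughout: the 8 myelinating Schwann cell markers summed to between 62167 and 117572 CPM in every library. Of the 13 marker lists, 2 held genes that passed the test: 2 of 8 adipocyte markers were lower in Mtmr2 KO than in WT control and 1 was higher in niacin-treated than untreated Mtmr2 KO, where 6 of 8 muscle markers were also higher. The adipocyte sums were 2915 to 3752 CPM in WT control, 807 to 4691 CPM in Mtmr2 KO and 2315 to 4596 CPM in Mtmr2 KO niacin.

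Tnfaip8l1 was the most abundant member in sciatic nerve and Tnfaip8l3 was close to the detection limit. On the scale of CPM per kb of merged exons, the WT control level was 6.81 ± 0.22 (SD, n = 4) for Tnfaip8l1, 3.999 ± 0.36 for Tnfaip8l2, 2.15 ± 0.17 for Tnfaip8 and 0.133 ± 0.048 for Tnfaip8l3. With these lengths the WT control ranges of neighbouring members did not overlap. The order of Tnfaip8 and Tnfaip8l2 depended on the length taken for the gene. With the longest annotated transcript (5085 in place of 10328 bases for Tnfaip8), Tnfaip8 reached 4.36 ± 0.35 CPM per kb against 3.999 ± 0.36 for Tnfaip8l2, with overlapping ranges, and with the longest coding transcript (2385 bases) it reached 9.30 ± 0.74. Tnfaip8l1 stood first and Tnfaip8l3 last in all 3 groups with each of the 3 lengths. Per kb of merged exons, 65.8% of the tested genes had a lower WT control level than Tnfaip8l1 and 5.23% had a lower one than Tnfaip8l3.

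**Figure D1:**
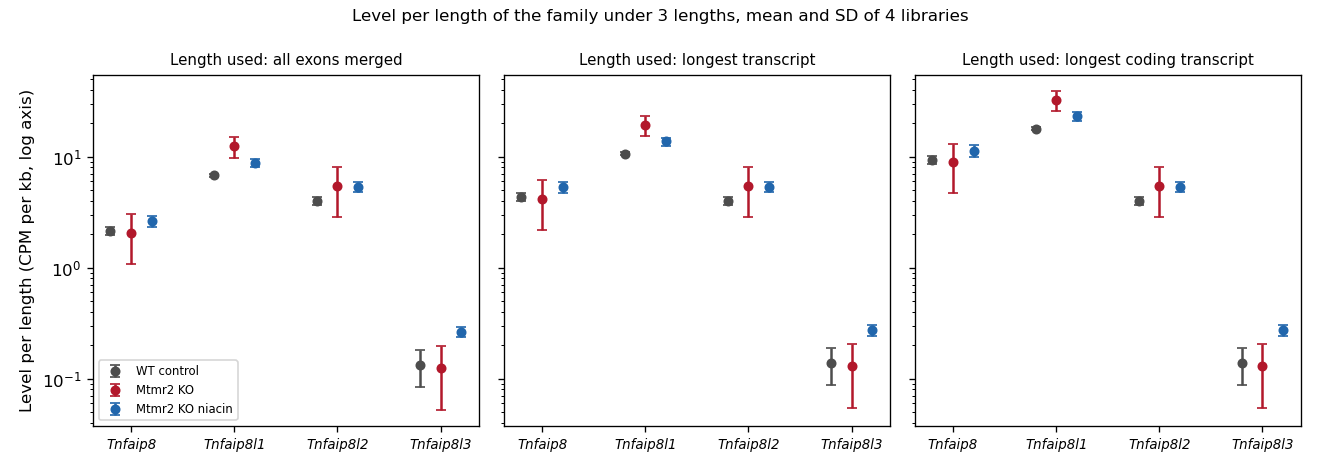
Level per length of the 4 members in CPM per kb on a log axis, with 1 panel for each length used; points are means and bars SDs of the 4 libraries of a group. Tnfaip8l1 is highest and Tnfaip8l3 lowest in each panel, whereas Tnfaip8 lies below Tnfaip8l2 with merged exons (2.15 against 3.999 in WT control) and above it with the longest coding transcript (9.30 against 3.999).

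Tnfaip8l1 was nearly constant among WT control libraries and higher in every library labelled Mtmr2 KO, 1 of which, 4503, had Mtmr2 itself at the WT control level. It measured 43.0, 41.6, 44.4 and 41.5 CPM in WT control, 67.7, 92.1, 89.6 and 59.9 CPM in Mtmr2 KO, and 49.2, 58.3, 52.7 and 59.2 CPM in Mtmr2 KO niacin, each in the order of the replicate numbers. All Mtmr2 KO libraries were above all WT control libraries, and the Mtmr2 KO niacin libraries lay between them without overlapping either group on this scale, or with the size factors of DESeq2. Scaled by the library totals alone, which was looked at after the data were seen, niacin-treated library 4508 rose to 65.6 CPM, above Mtmr2 KO 4504 at 60.01 CPM, so those 2 groups overlapped, while both stayed above the WT control libraries at 41.7 to 44.7 CPM. As a description of the values that chose it, the mean was 77.4 ± 16.0 CPM in Mtmr2 KO against 42.6 ± 1.35 CPM in WT control (SD, n = 4 each), a log2 fold change of 0.86 ± 0.14 (SE). The niacin-treated mean of 54.9 ± 4.73 CPM was −0.50 ± 0.14 on the log2 scale from untreated Mtmr2 KO and 0.36 ± 0.14 from WT control. These comparisons share libraries, the Mtmr2 KO group being the second group of one and the first of another. In bulk nerve, more cells of a type that expresses a gene and more RNA per cell cannot be told apart. The summed markers of 3 of the 13 marker lists were also higher in every Mtmr2 KO library than in every WT control library. The 6 non-myelinating Schwann cell markers, all detected in every library, summed to 433 to 535 CPM in WT control, 574 to 915 CPM in Mtmr2 KO and 526 to 734 CPM in Mtmr2 KO niacin. The 5 tested of 6 sensory neuron markers summed to 13.6 to 17.003, 18.95 to 56.3 and 20.7 to 27.7 CPM in the same order, Scn10a having no read in at least 1 library. The 3 tested of 8 neutrophil markers summed to 0.363 to 0.649, 0.914 to 14.3 and 0.196 to 8.49 CPM, 5 of the 8 having no read in at least 1 library. None of these genes passed the test in any comparison, and their part in the Tnfaip8l1 level was not tested. Among the tested genes, 3.85% had every Mtmr2 KO library above every WT control library, 14.9% had every Mtmr2 KO niacin library above every WT control library, and 3.4% had every Mtmr2 KO niacin library below every untreated one.

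The size of the Tnfaip8l1 differences depended in part on libraries 4502 and 4503, its highest. The log2 fold change between Mtmr2 KO and WT control was 0.76 without replicate 4502, 0.78 without replicate 4503 and 0.59 without both, a set of alternatives of which the last was added after the data were seen. The niacin-treated minus untreated Mtmr2 KO difference was −0.42 without replicate 4502, −0.42 without replicate 4503 and −0.23 without both. Both differences then moved by more than the spread between replicates. With both libraries left out, the remaining Mtmr2 KO libraries measured 67.7 and 59.9 CPM and the highest Mtmr2 KO niacin library 59.2 CPM, an order that turned round between the latter pair with library totals (60.01 and 65.6 CPM). In WT control the log2 SD of Tnfaip8l1 was 0.05, smaller than that of all but 4.13% of the tested genes.

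**Figure D2:**
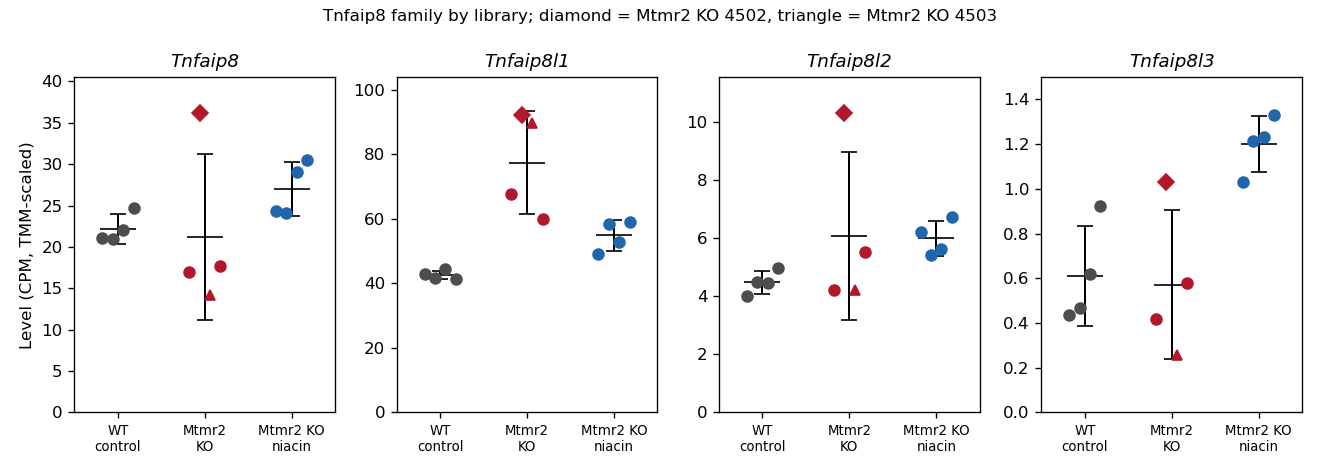
Level of each member in CPM in the 12 libraries, with the group mean (line) and SD (bar), each panel on its own linear axis from 0; the diamond is the Mtmr2 KO library 4502 and the triangle the library labelled Mtmr2 KO 4503. Tnfaip8l1 separates the 3 groups on this scale, which uses TMM factors. In every panel library 4502 is the highest of the Mtmr2 KO group (92.1 CPM for Tnfaip8l1, 36.1 CPM for Tnfaip8, 10.3 CPM for Tnfaip8l2 and 1.03 CPM for Tnfaip8l3).

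Tnfaip8, the founding member, showed no difference past the threshold between Mtmr2 KO and WT control, and its Mtmr2 KO libraries lay on both sides of the control range. It measured 21.02, 20.9, 22.03 and 24.7 CPM in WT control and 16.9, 36.1, 14.2 and 17.7 CPM in Mtmr2 KO. In Mtmr2 KO, 3 of 4 libraries, the one labelled 4503 among them, were below every WT control library and library 4502 was above all of them. The log2 fold change was −0.07 ± 0.24 (SE; 95% interval −0.57 to 0.44; edgeR quasi-likelihood adjusted p = 0.909, over all genes). In this comparison 0.267% of the tested genes passed an adjusted p of 0.05, and none of the 3 tested paralogues did. Without library 4502 the log2 fold change was −0.45 (adjusted p = 0.104) and without library 4503 it was 0.08 (adjusted p = 0.867).

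In Mtmr2 KO niacin nerves Tnfaip8 measured 24.3, 24.1, 29.0 and 30.5 CPM, within the range set by the untreated Mtmr2 KO libraries. The difference from untreated Mtmr2 KO was 0.35 ± 0.24 on the log2 scale (95% interval −0.16 to 0.85; edgeR adjusted p = 0.430), in a comparison in which 1.43% of the genes passed the threshold. This call depended on library 4502: without it all niacin-treated libraries were above all remaining untreated ones, a separation that was not counted over all genes. The log2 fold change then became 0.71 with an adjusted p of 0.00523 from edgeR, in a fit in which 23.6% of all genes passed the threshold. Without both 4502 and 4503 it was 0.63 (edgeR adjusted p = 0.0157), with 12.5% of all genes called. Against WT control, 2 of 4 niacin-treated libraries were above every control library and the log2 fold change was 0.28 ± 0.24 (edgeR adjusted p = 0.452).

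Tnfaip8l2, the immune-cell member, was slightly higher on average in both Mtmr2-null groups without passing the test. It measured 4.0, 4.49, 4.46 and 4.99 CPM in WT control, 4.22, 10.3, 4.23 and 5.53 CPM in Mtmr2 KO, and 6.22, 5.42, 5.62 and 6.73 CPM in Mtmr2 KO niacin. All niacin-treated libraries were above all WT control libraries, as for 14.9% of all genes, while the untreated Mtmr2 KO libraries overlapped both groups. The log2 fold changes were 0.43 ± 0.26 for Mtmr2 KO against WT control (95% interval −0.12 to 0.98; edgeR adjusted p = 0.402), −0.01 ± 0.25 for niacin-treated against untreated Mtmr2 KO (edgeR adjusted p = 0.984) and 0.42 ± 0.26 for niacin-treated Mtmr2 KO against WT control (95% interval −0.13 to 0.97; edgeR adjusted p = 0.307). Without library 4502 the first of these was 0.05 and the second 0.35 (edgeR adjusted p = 0.928 and 0.139). The interval of the third includes the spread of the untreated Mtmr2 KO group, which is not part of that comparison. With edgeR on only the 2 groups compared it was 0.43 (adjusted p = 0.0353), in a fit that called 5586 of 16501 genes.

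The level of Tnfaip8l2 moved with macrophage markers. The 12 macrophage markers, which include Csf1r, Adgre1 and the C1q genes and were all detected in every library, summed to 737 to 890 CPM in WT control, 691 to 1697 CPM in Mtmr2 KO and 887 to 1293 CPM in Mtmr2 KO niacin, and none of them passed the test in any comparison. The highest sum belonged to library 4502, which also had the highest Tnfaip8l2 level. Over the 12 libraries the log2 level of Tnfaip8l2 had a Pearson r of 0.906 and a Spearman rho of 0.797 with the log2 macrophage sum (r = 0.779 without libraries 4502 and 4505, the farthest from the median, and r = 0.875 with group means removed), over libraries that share depth and composition. With the same sum, r was 0.645 for Tnfaip8, 0.543 for Tnfaip8l3 and 0.504 for Tnfaip8l1, and Tnfaip8l2 had a higher r, 0.936, with the short-minus-long difference. The part of macrophage content in the Tnfaip8l2 level was not tested. Of 10 lymphocyte markers only 4 were expressed enough to be tested, 5 had no read in at least 1 library, and the tested ones summed to at most 4.39 CPM in any library.

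Tnfaip8l3, the lipid-transfer member, was barely detected and its values carry a large counting error. Its raw counts were 12, 13, 17 and 27 in WT control, 12, 23, 8 and 12 in Mtmr2 KO and 21, 28, 27 and 31 in Mtmr2 KO niacin. A count of 8 has an exact 95% Poisson interval of 3.45 to 15.8 and a count of 31 one of 21.1 to 44.0, intervals that cover counting error only. In CPM the WT control libraries lay between 0.436 and 0.922, the Mtmr2 KO libraries between 0.256 and 1.03 and the niacin-treated libraries between 1.03 and 1.33. Niacin-treated nerves were above every WT control nerve, as for 14.9% of all genes. Of the niacin-treated nerves, 3 of 4 were above every untreated Mtmr2 KO nerve, library 4502 being the untreated library that overlapped (1.031 CPM against 1.029 CPM in niacin-treated 4505). That overlap was absent with library totals or the size factors of DESeq2.

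The log2 fold change of Tnfaip8l3 between niacin-treated and untreated Mtmr2 KO was 1.10 ± 0.39 (95% interval 0.27 to 1.94), which did not pass the test after correction (edgeR adjusted p = 0.141). Against WT control the niacin-treated difference was 0.97 ± 0.38 (95% interval 0.15 to 1.78; edgeR adjusted p = 0.159). In that comparison 0% of the 17257 tested genes passed the threshold with edgeR on all 12 libraries, although 4254 had an unadjusted p under 0.05 and DESeq2 called 1057 genes. Untreated Mtmr2 KO and WT control differed by −0.13 ± 0.40 (edgeR adjusted p = 0.886). Without library 4502 both niacin differences passed the threshold, at 1.53 against untreated Mtmr2 KO (edgeR adjusted p = 0.0127) and 0.95 against WT control (edgeR adjusted p = 0.0461), in comparisons in which 23.6% and 21.6% of all genes passed it. Without library 4503 neither did (0.84 and 0.97, edgeR adjusted p = 0.340 and 0.0951), in comparisons in which 13 and 304 of all 17430 genes passed it. Libraries 4502 and 4503 are in neither group of the comparison with WT control and enter it through the spread shared by all groups. With edgeR on only the 2 groups compared, that difference was 0.97 (adjusted p = 0.0238), in a fit that called 5586 of 16501 genes.

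**Figure D3:**
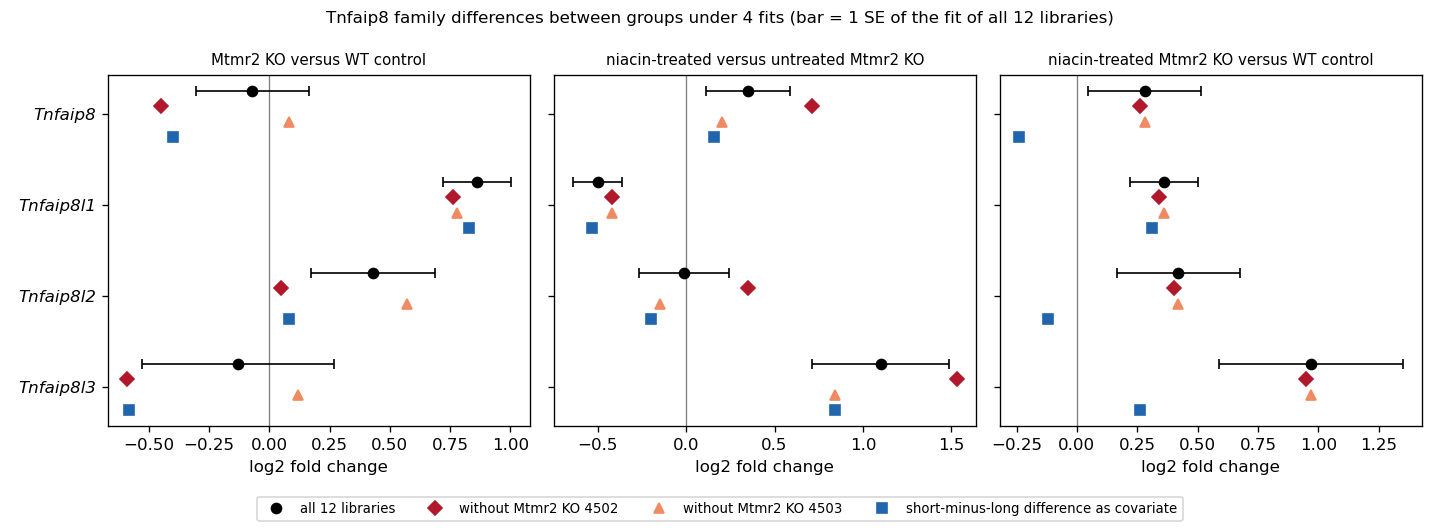
Log2 fold change of each member in the 3 comparisons, from the fit of all 12 libraries (circle, with a bar of 1 SE), without Mtmr2 KO replicate 4502, without replicate 4503, and with the short-minus-long difference of each library as a covariate; each panel has its own axis. The symbols for Tnfaip8l1 lie at 0.76 to 0.86 in the first panel, the difference it was chosen for, so their distance from 0 carries no test. Without both 4502 and 4503, a fit not drawn, Tnfaip8l1 was 0.59 in the first comparison and −0.23 in the second. The symbols of Tnfaip8, Tnfaip8l2 and Tnfaip8l3 cross 0 in 5 of their 9 sets, some of which lie near 0 with all 12 libraries (−0.07 for Tnfaip8 and −0.13 for Tnfaip8l3 in the first panel, −0.01 for Tnfaip8l2 in the second).

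Tnfaip8, Tnfaip8l2 and Tnfaip8l3 followed the short-minus-long difference of the libraries, and Tnfaip8l1 did not. Over the 12 libraries the Pearson r of the log2 level with that difference was 0.844 for Tnfaip8, 0.936 for Tnfaip8l2, 0.839 for Tnfaip8l3 and 0.285 for Tnfaip8l1, with Spearman rho of 0.867, 0.93, 0.881 and 0.182. Without libraries 4502 and 4503, which were farthest from the median, r was 0.74, 0.946, 0.895 and 0.308, and with group means removed it was 0.931, 0.945, 0.91 and 0.205. Across all tested genes, 12.1% had an r above 0.8 and 11.7% an r below −0.8, so a high correlation with this difference was widespread. These are descriptions over libraries that share groups and depth, chosen after the data were seen.

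With the short-minus-long difference as a covariate, an alternative added after the data were seen, the differences between niacin-treated Mtmr2 KO and WT control changed to −0.24 for Tnfaip8, −0.12 for Tnfaip8l2 and 0.26 for Tnfaip8l3 on the log2 scale (edgeR adjusted p = 0.629, 0.898 and 0.873), and that of Tnfaip8l1 was 0.31. For Mtmr2 KO against WT control, the same fit gave −0.40 for Tnfaip8 (edgeR adjusted p = 0.0689), 0.08 for Tnfaip8l2 and −0.58 for Tnfaip8l3, beside 0.83 for Tnfaip8l1. For niacin-treated against untreated Mtmr2 KO it gave −0.53 for Tnfaip8l1, 0.16 for Tnfaip8, −0.20 for Tnfaip8l2 and 0.84 for Tnfaip8l3 (edgeR adjusted p = 0.434, 0.422 and 0.101 for the last 3). The covariate and the groups overlap in part, since the niacin-treated libraries had the higher differences, and the origin of the short-minus-long difference was not tested.

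**Figure D4:**
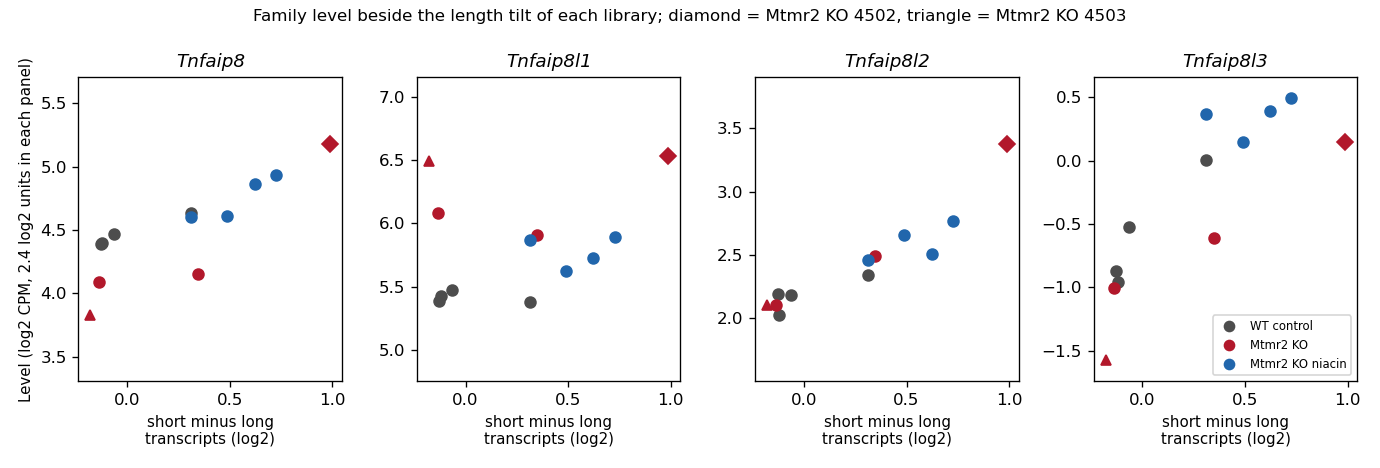
Log2 CPM of each member (vertical, 2.4 log2 units in each panel) against the short-minus-long difference of the library in log2 units (horizontal), for the 12 libraries coloured by group; the diamond is Mtmr2 KO 4502 and the triangle the library labelled Mtmr2 KO 4503. Tnfaip8, Tnfaip8l2 and Tnfaip8l3 increase with it from left to right (r = 0.844, 0.936 and 0.839), while the Tnfaip8l1 points of the 3 groups lie at separate heights (r = 0.285).

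The members with the same dependence also varied together. After group means were removed, the Pearson r over the 12 libraries was 0.935 for Tnfaip8 and Tnfaip8l2, 0.872 for Tnfaip8 and Tnfaip8l3, and 0.845 for Tnfaip8l2 and Tnfaip8l3, but 0.379, 0.341 and 0.0949 for Tnfaip8l1 with Tnfaip8, Tnfaip8l2 and Tnfaip8l3. Of all tested genes, those with the pattern most like Tnfaip8l2 were Tomm7, of the mitochondrial import complex (r = 0.986), Rpl23a, a ribosomal protein gene (r = 0.983), and Mettl23 (r = 0.981). Those most like Tnfaip8 were Ndufb3, a subunit of respiratory complex I (r = 0.979), Gstm2, a glutathione transferase (r = 0.974), and Znrd1as (r = 0.973), and those most like Tnfaip8l3 were Txn2, the mitochondrial thioredoxin (r = 0.963), Polr1e, a subunit of RNA polymerase I (r = 0.952), and Mgst3 (r = 0.948). With group means removed these 9 correlations were 0.937 to 0.990.

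The genes most like Tnfaip8l1 were Abcb1b, a drug efflux transporter (r = 0.941), Zfp654, a zinc finger protein (r = 0.941), and Fam13b (r = 0.933), with r = 0.933, 0.939 and 0.899 once group means were removed. Abcb1b averaged 10.5 CPM in WT control, 17.01 CPM in Mtmr2 KO and 12.5 CPM in Mtmr2 KO niacin. Fam13b averaged 57.8, 105 and 64.7 CPM in the same order. They were chosen for this likeness among 17256 genes, so their values carry no test.

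The skeletal muscle RNA in 2 niacin-treated libraries was set beside the niacin values of the family. In libraries 4506 and 4507, where the muscle markers summed to 3001 and 2972 CPM, Tnfaip8l1 (58.3 and 52.7 CPM) and Tnfaip8l3 (1.21 and 1.23 CPM) lay inside the range of the other niacin-treated libraries, and Tnfaip8l2 (5.42 and 5.62 CPM) lay below it. Tnfaip8 measured 24.1 CPM in 4506, just below the range of 24.3 to 30.5 CPM in the others, and 29.0 CPM in 4507, inside it. Without these libraries, an alternative added after the data were seen, the difference of niacin-treated from untreated Mtmr2 KO was −0.52 for Tnfaip8l1, 0.36 for Tnfaip8, 0.09 for Tnfaip8l2 and 1.06 for Tnfaip8l3 on the log2 scale. None of the last 3 passed the test, but 0 of all 18555 genes tested in that fit passed it in this comparison, so the lack of a call says nothing particular about the family.

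Other genes of phosphoinositide transfer and signalling were read from fixed lists. None of their 42 genes passed the test in the 3 comparisons with all 12 libraries, in which 0.267%, 1.43% and 0% of all genes passed it. Among the 6 other phosphatidylinositol transfer proteins the median log2 fold change was −0.15 in Mtmr2 KO against WT control and −0.28 in niacin-treated Mtmr2 KO against WT control, beside medians of 0.03 and 0.02 over all genes. The most abundant of them per length, Pitpna, averaged 209 ± 8.81 CPM in WT control, 204 ± 28.5 CPM in Mtmr2 KO and 182 ± 23.5 CPM in Mtmr2 KO niacin. Pitpnm3, named after its values were seen, had the lowest log2 fold change of the list in Mtmr2 KO, −1.18 ± 0.27, with 6.99 ± 0.67 CPM in WT control, 3.06 ± 1.35 CPM in Mtmr2 KO and 5.51 ± 1.09 CPM in Mtmr2 KO niacin. Every Mtmr2 KO library was below every WT control library, as for 5.46% of all genes, and its adjusted p was 0.0686 with edgeR, while DESeq2 on all 12 libraries called it.

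In the list of class I PI3K, the phosphatases that act on its lipids and the kinases its lipids recruit, 11 of 18 genes had a lower mean in Mtmr2 KO than in WT control, and the median log2 fold change was −0.12. Akt1, its most abundant gene per length and the kinase recruited by those lipids, averaged 185 ± 8.45, 161 ± 28.8 and 153 ± 15.0 CPM in WT control, Mtmr2 KO and Mtmr2 KO niacin. Of the 10 kinases that make PIP2 and its precursors, 9 had a lower niacin-treated mean than WT control mean. The median of their log2 fold changes was −0.38, beside 0.02 over all genes. Their summed level was lowest in Mtmr2 KO 4502 and niacin-treated 4508 (438 and 439 CPM). These libraries had the highest short-minus-long differences (0.99 and 0.73), whose part in the levels of the list was not tested. Pip4k2a, the most abundant, averaged 160 ± 5.50, 150 ± 23.7 and 157 ± 25.7 CPM. Of the 8 proteins described as acting with family members, the small GTPase Rac1 averaged 373 ± 28.3, 351 ± 81.0 and 273 ± 52.6 CPM, and the list had median log2 fold changes of 0.07 and 0.18 in the comparisons of Mtmr2 KO and of niacin-treated Mtmr2 KO with WT control. That none of the 42 genes passed with edgeR on all 12 libraries depended on library 4502 and on the fit. Without Mtmr2 KO 4502, 17 of the 42 genes passed the test between niacin-treated and untreated Mtmr2 KO. Between niacin-treated Mtmr2 KO and WT control 11 passed, although 4502 is in neither group and enters through the spread shared by all groups. In those fits 23.6% and 21.6% of all genes passed. In the same comparisons limma-voom with sample weights called 12 and 21 list genes, beside 2007 and 7311 of all genes. With edgeR on only the 2 groups compared, 0 and 17 passed, beside 0 and 5586 of all genes.

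Of the genes that overlap members, 1 was counted in these libraries. Tnfaip8 spans 49979427 to 50107173 on the + strand of chromosome 18 (GRCm38), and the antisense transcript C030005K06Rik lies inside it, where its transcripts hold 6.2% of the stretches of 100 bases found in Tnfaip8 transcripts. That gene had 1 to 12 counts per library against 367 to 806 for Tnfaip8, and the strand setting of the counting is unknown. Tnfaip8l1 (chromosome 17, 56162477 to 56173955, + strand) overlaps the antisense microRNA gene Gm44397, which is not used here. Tnfaip8l2 (chromosome 3, 95139521 to 95142360, − strand) overlaps no other annotated gene, and Tnfaip8l3 (chromosome 9, 54023405 to 54068388, − strand) shares no exon with the transcripts annotated on its opposite strand.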

How the data were processed

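RNA-seq libraries of sciatic nerve came from 3 groups of 4 mice. The authors deposited whole-number read counts per gene, made with CASAVA 1.9 and STAR on GRCm38 per the labels, with the counting program, strand setting and annotation not given in the sources used here. Deposited tables of the authors' own comparisons hold fold changes and p-values that were not used, and only their gene symbols were read. Gene identifiers were matched for 42548 of 43432 genes to a GENCODE annotation of GRCm38, which gave gene lengths. Promoter sequences came from RefSeq (GRCm38.p6) and were read for 3 of 4 members, Tnfaip8 not being looked up.

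Counts were filtered by filterByExpr (minimum count 10), scaled by TMM and tested with the quasi-likelihood test of edgeR 4.0.16 (R 4.3.3) in 1 fit of 12 libraries without covariates, with two-sided p-values adjusted by Benjamini-Hochberg over all 17257 genes and called under 0.05. The fits were first tested on simulated data with the same spread in all groups, which does not cover the unequal spreads of these groups. SE is the absolute log2 fold change over the square root of F. Log2 levels used a prior count of 2. Libraries were separate mice, so p-values measure the spread between animals. Alternatives used DESeq2 1.42.0 and limma 3.58.1, other filters and scalings, Xist as a covariate and each library left out in turn. The members and lists were chosen with earlier results of these data known. Named genes were the members, Mtmr2, called or most abundant genes of the fixed lists, the 3 genes most like each member, and overlapping genes. Exceptions are stated. Marker lists were read as summed levels and counts of called genes. Depth limits Tnfaip8l3 most, with 8 to 31 counts per library.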

Additional observations from a re-analysis of the deposited data

Results flagged for a closer look

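In a check of 24 sets of 4 libraries for a lone extreme value, in which chance alone would mark about 1 set in 20, 3 values stood apart from the rest of their group. Tnfaip8 in Mtmr2 KO replicate 4502 was 36.1 CPM, against 14.2 to 17.7 CPM in the other 3 Mtmr2 KO libraries. The summed skeletal muscle markers in WT control replicate 4499 were 13.8 CPM, against 51.8 to 55.1 CPM in the other WT control libraries. The short-minus-long difference of WT control replicate 4500 was 0.31 on the log2 scale, against −0.129 to −0.0638 in the other WT control libraries, and the same library had the highest Tnfaip8 (24.7 CPM), Tnfaip8l2 (4.99 CPM) and Tnfaip8l3 (0.922 CPM) of its group but the lowest Tnfaip8l1 (41.5 CPM). Causes were not tested.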

How the results depend on the processing

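Of 273 member log2 fold changes recomputed under alternatives, 240 kept their direction and, for the 3 tested members, their side of the threshold. A further 15 passed the threshold only in the alternative, 2 moved by more than the spread between replicates and 16 changed sign. The 273 include 23 alternatives in each comparison for Tnfaip8l1, which was chosen for its difference and has no test. None that passed the threshold lost it, since none of the 3 tested members passed it. With 1 library left out in turn, Tnfaip8 ranged from −0.45 to 0.08 and Tnfaip8l3 from −0.59 to 0.13 for Mtmr2 KO against WT control. For niacin-treated against untreated Mtmr2 KO, Tnfaip8 ranged from 0.20 to 0.71, Tnfaip8l2 from −0.15 to 0.35 and Tnfaip8l3 from 0.84 to 1.53, and for niacin-treated Mtmr2 KO against WT control Tnfaip8l3 ranged from 0.84 to 1.24. Genes called over all genes then ranged from 0 to 457, 0 to 4180 and 0 to 3826 in the 3 comparisons in that order (46, 246 and 0 with all libraries), and on the pathway lists from 0 to 2, 0 to 17 and 0 to 11 (0 in each with all libraries). The causes were not tested.

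DESeq2 on all libraries called 680, 1059 and 1057 genes (2, 4 and 3 on the lists), and on only the groups compared 427, 444 and 5777 (1 and 18 on the lists in the first and last), with Tnfaip8l2 and Tnfaip8l3 called against WT control at 0.40 and 0.96. edgeR on only the groups compared called 0, 0 and 5586 genes (17 on the lists in the last), again with Tnfaip8l2 and Tnfaip8l3, at 0.43 and 0.97. limma-voom with sample weights called 108, 2007 and 7311 genes (12 and 21 on the lists in the last 2), with Tnfaip8 at 0.64 and Tnfaip8l3 at 1.34 against untreated Mtmr2 KO, and Tnfaip8 at 0.33, Tnfaip8l2 at 0.39 and Tnfaip8l3 at 1.09 against WT control. Without a filter 341, 573 and 311 genes were called (1 on the lists in the first), and with Xist as a covariate 12 and 50 in the first 2 comparisons. The sign of Tnfaip8l2 between niacin-treated and untreated Mtmr2 KO, near 0 with all libraries, became positive with DESeq2 on the groups compared (0.01), limma-voom (0.23), no filter (0.02) and Xist (0.05).

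The next 3 alternatives were added after the data were seen. Without the Mtmr2 KO libraries 4502 and 4503, 11, 2223 and 5263 genes were called (11 and 15 on the lists in the last 2), Tnfaip8l1 was 0.59 in Mtmr2 KO and −0.23 under niacin, Tnfaip8 passed the threshold at 0.63 and Tnfaip8l2 was 0.30 against untreated Mtmr2 KO, and Tnfaip8l2 and Tnfaip8l3 passed it against WT control at 0.42 and 0.97. Without niacin libraries 4506 and 4507, 6 and 0 genes were called in the first 2 comparisons and Tnfaip8l2 was 0.09 against untreated Mtmr2 KO. With the short-minus-long difference as a covariate, 455 and 505 genes were called in the first 2 comparisons (2 and 3 on the lists), and Tnfaip8 and Tnfaip8l2 were −0.24 and −0.12 in niacin-treated Mtmr2 KO against WT control. Per kb of the longest annotated transcript, Tnfaip8 was 4.36, 4.17 and 5.31 and Tnfaip8l1 10.6, 19.3 and 13.7 CPM in WT control, Mtmr2 KO and Mtmr2 KO niacin, and per kb of the longest coding transcript, added after the data were seen, 9.30, 8.90 and 11.3 and 17.9, 32.5 and 23.1 CPM. No paired analysis was possible because the groups share no replicate numbers. Counts of 8 to 31 limit Tnfaip8l3.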
